A study of Mus musculus with 6 samples.

Results

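The cytoplasmic translation factors were taken as every gene symbol in the count files beginning with Eif or Eef and a digit, every symbol beginning with Pabpc, and Etf1, leaving out the argonaute genes once named Eif2c; the rule found 70 of 23284 symbols. The samples were RNA sequencing libraries of fully grown mouse oocytes of the germinal vesicle (GV) stage, arrested in prophase of meiosis. The oocytes were labelled Lsd1 KO or Control, with 3 biological replicates of each genotype and 100 oocytes per sample. Lsd1, also called Kdm1a, encodes a histone demethylase, and the series title gives the question as what its loss does to gene expression in oocytes. Both groups came from females of mixed C57BL/6 and 129 background, 4 to 6 weeks old, taken 48 hours after 5 IU of PMSG, a gonadotrophin that drives follicle growth. The sources used here do not give the alleles behind each label or the cells in which Lsd1 was deleted.

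Initiation factors bring the small ribosomal subunit, the initiator tRNA and a capped mRNA together: eIF4E binds the cap, eIF4G is the scaffold, eIF4A unwinds the leader, eIF3 joins the mRNA complex to the ribosome, and eIF2 delivers the initiator tRNA as a GTP-bound complex that eIF2B recharges. Elongation factors then bring in each aminoacyl-tRNA and move the ribosome, the release factor frees the finished chain, and poly(A)-binding proteins tie the mRNA tail to initiation. In the fully grown oocyte new transcription has largely stopped, and stored mRNAs are held back or translated through the cap and the poly(A) tail, so this machinery is part of how the oocyte runs meiosis from stored messages.

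Levels are in CPM, read counts divided by a library size scaled by the TMM method, and every log2 fold change is Lsd1 KO over Control, with its standard error, from edgeR's quasi-likelihood test over 12935 genes. A gene was called where the Benjamini-Hochberg adjusted p was under 0.05. These p-values set the genotype difference against the spread between the 3 samples of a genotype, a spread estimated partly from all genes tested. In pooled oocytes, fewer cells with a transcript and less transcript per cell cannot be told apart. Of the 70 genes, 63 had enough counts to be tested and 10 were called: Eif2ak2, Eif4a2, Eif3k and Eif2s3x rose, and Eif4e3, Eif2s1, Eif1a, Eif4h, Eif3m and Eif4g3 fell. That is 15.9% of those tested, against 21.3% of all genes tested (11.0% higher and 10.3% lower), so the number of calls is not a result about translation factors. With a filter of 10 CPM in 3 libraries, 12 of 57 were called (21.1%), against 26.5% of all genes. At an unadjusted p under 0.05 there were 17, where 35.1% of all genes passed. There were 4 calls without Lsd1 KO replicate 1, 5 without Control replicate 1 and 6 without Lsd1 KO replicate 3. Calls over all genes fell in these refits too, from 1421 higher and 1329 lower with every library kept. In the same order, they were 949 higher and 638 lower, 932 and 994, and 1018 and 727.

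The starts of several of these genes are shown first, from RefSeq on GRCm38.p6. A promoter was found for 51 of the 70 genes, and each sequence printed matched the mm9 assembly at 1 place, which gives its coordinates. The promoters of Eif2ak2, which rose most, of Eif4a2, which rose in every refit, and of Eif2s1, which fell in every refit, run 5′ to 3′ from 250 bases before the start of the transcript to 30 bases after it. Capitals mark matches, on either strand, to the interferon response element (GAAA, any 2 bases, GAAA), the NRF1 motif (GCATGCGC), the ETS motif (CCGGAAG), the GC box (GGGCGG) and the TATA box (TATAAA). The Eif2ak2 window is chr17:79281883-79282162 on the minus strand, the Eif4a2 window chr16:23107291-23107570 on the plus strand and the Eif2s1 window chr12:79962809-79963088 on the plus strand.
Eif2ak2: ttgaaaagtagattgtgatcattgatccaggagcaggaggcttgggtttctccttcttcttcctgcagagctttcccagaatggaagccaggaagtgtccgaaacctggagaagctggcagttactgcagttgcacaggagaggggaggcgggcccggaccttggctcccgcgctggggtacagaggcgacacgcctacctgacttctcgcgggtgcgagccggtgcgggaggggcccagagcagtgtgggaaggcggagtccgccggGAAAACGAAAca
Eif4a2: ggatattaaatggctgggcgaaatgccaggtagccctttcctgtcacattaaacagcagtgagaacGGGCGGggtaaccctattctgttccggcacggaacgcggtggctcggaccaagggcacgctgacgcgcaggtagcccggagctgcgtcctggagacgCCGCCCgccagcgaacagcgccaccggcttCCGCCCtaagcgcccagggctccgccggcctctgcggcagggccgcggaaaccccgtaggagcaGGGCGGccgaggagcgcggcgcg
Eif2s1: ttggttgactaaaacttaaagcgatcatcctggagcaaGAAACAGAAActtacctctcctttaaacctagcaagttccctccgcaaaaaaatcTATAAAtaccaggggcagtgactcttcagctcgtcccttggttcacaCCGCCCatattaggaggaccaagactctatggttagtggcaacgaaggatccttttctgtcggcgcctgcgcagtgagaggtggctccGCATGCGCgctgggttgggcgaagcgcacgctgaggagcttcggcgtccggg
Eif2ak2 held the interferon-type letters 19 bases into its transcript, Eif2s1 held them upstream together with TATA box, GC box and NRF1 letters, and Eif4a2 held only GC boxes, 4 in all. The interferon-type letters occurred in 4 of the 51 promoters (7.84%: Eif2ak2, Eif2s1, Eif2s3x and Eif3a), and in 3.80% of the promoters of all 27025 genes. The ETS motif occurred in 17 (33.3%, against 9.48% of all genes), the GC box in 37 (72.5%, against 37.3%), the NRF1 motif in 5 (9.80%, against 2.92%) and the TATA box in 6 (11.8%, against 15.1%). The genes with the interferon-type letters moved in different directions: of the 4, Eif2ak2 and Eif2s3x rose, Eif2s1 fell and Eif3a was not called. A match says only that the letters are present, and none of these shares was tested.

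Many mRNAs of the translation machinery are known to begin with a run of pyrimidines, the terminal oligopyrimidine tract, which makes their translation sensitive to mTOR signalling. A run of at least 8 pyrimidines within 5 bases of the annotated start was present in 10 of the 51 genes (19.6%), against 11.4% of all genes. The rule takes runs that begin before the start, as in Eif3l below, or after it, as in Eif2b2. Such a run is therefore not by itself a terminal oligopyrimidine tract. The 6 tested genes with a run and a single annotated start are printed from 20 bases before the start to 20 after it, with the run in capitals: Eef1a1 (chr9:78329512-78329551, minus strand), Eif2b2 (chr12:86560411-86560450, plus), Eif2b5 (chr16:20498870-20498909, plus), Eif2s3x (chrX:91457971-91458010, minus), Eif3f (chr7:116077909-116077948, plus) and Eif3l (chr15:78905633-78905672, plus).
Eef1a1: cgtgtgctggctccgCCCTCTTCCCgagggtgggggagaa
Eif2b2: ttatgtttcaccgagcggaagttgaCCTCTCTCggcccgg
Eif2b5: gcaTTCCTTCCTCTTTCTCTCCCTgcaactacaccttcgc
Eif2s3x: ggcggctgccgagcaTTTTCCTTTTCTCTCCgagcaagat
Eif3f: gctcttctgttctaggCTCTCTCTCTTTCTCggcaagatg
Eif3l: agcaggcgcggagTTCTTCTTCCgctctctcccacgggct
The runs were 10, 8, 21, 16, 15 and 10 bases long. The interferon-type match of Eif2s3x, read on the other strand, lies inside its pyrimidine run. Of the 9 genes with a run that were tested, 1 was called, Eif2s3x, which rose.

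The libraries held 10764095 to 12334683 counts in Lsd1 KO and 10735422 to 13035045 in Control. Kdm1a, the targeted gene, had 3.77, 2.796 and 3.23 CPM in Lsd1 KO replicates 1 to 3, against 73.9, 72.5 and 44.4 CPM in Control replicates 1 to 3, a 19.4-fold lower level (log2 fold change -4.28 ± 0.27, adjusted p = 4.58e-06), with no overlap between the genotypes. All 12 oocyte markers were detected and tested, of which 2 rose, with summed levels of 35203 to 39736 CPM in Lsd1 KO libraries and 24488 to 29382 CPM in the Control libraries. Gdf9 alone had 14482 to 16950 CPM in Lsd1 KO libraries and 5569 to 7015 CPM in the Control libraries, and without it the sums overlapped, at 20721 to 23884 CPM in Lsd1 KO and 17473 to 23813 CPM in Control. The 12 granulosa and cumulus markers, of which 9 were tested, 3 rose and 1 fell, summed to 376 to 476 CPM in Lsd1 KO libraries and 119 to 142 CPM in the Control libraries. Cyp19a1 made up most of the sum in each Lsd1 KO library, and without it the sums overlapped between the genotypes. Cyp19a1 rose, at 239 to 405 CPM in Lsd1 KO and 28.6 to 49.2 CPM in Control (adjusted p = 1.78e-05), as did Ptgs2, at 14.4 to 21.2 CPM in Lsd1 KO and 1.54 to 2.22 CPM in Control (adjusted p = 6.23e-05), and Inha, at 12.5 to 51.6 CPM in Lsd1 KO and 7.61 to 15.2 CPM in Control (adjusted p = 0.043). Nr5a2 fell, at 25.7 to 33.2 CPM in Lsd1 KO and 67.5 to 73.0 CPM in Control (adjusted p = 0.000786). Fshr and Foxl2 were not called, with log2 fold changes of 1.35 (adjusted p = 0.117) and 1.89 (adjusted p = 0.106), and stayed under 7 CPM in every library. The 6 theca and stroma markers, of which 2 were tested and 1 rose (Dcn), summed to 10.4 to 11.3 CPM in Lsd1 KO libraries and 1.85 to 2.80 CPM in the Control libraries. The 8 blood and immune markers summed to 121, 8.93 and 76.0 CPM in Lsd1 KO replicates 1 to 3, against 28.9, 5.499 and 33.8 CPM in Control replicates 1 to 3, with Hba-a1 and Hbb-b1 at 0 throughout. Of the 6 tested, 0 were called by edgeR, DESeq2 or limma-voom, and 1 had an unadjusted p under 0.05 in edgeR. The part of these cells in the results below was not tested. Control replicate 3 stood apart on the second principal component and Lsd1 KO replicate 2 on the third, and calls that change without a library are given with the gene.

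As a whole the translation factors shifted little. Summed over the 70 genes, the level was 12065, 11961 and 12375 CPM in the Lsd1 KO libraries, against 11834, 11460 and 12467 CPM in the Control libraries, and the groups overlapped. The median log2 fold change of the 63 tested genes was 0.00, against -0.01 over all genes tested, with 32 values above and 31 below 0. The median size of the change, sign ignored, was 0.27 on the log2 scale, against 0.44 over all genes; among genes with a mean of at least 10 CPM it was 0.27 for the 57 translation factors and 0.38 for all 8158. Only Eif2ak2 and Eif4e3 changed by a log2 of 1 or more, which is 3.17% of those tested, against 18.6% of all genes. Among genes with a mean of at least 10 CPM these shares were 1.75% of the 57 and 10.5% of the 8158. In 23 of the 63 genes (36.5%; 11 higher and 12 lower) the libraries of the genotypes did not overlap, against 38.7% of all genes (19.5% higher and 19.1% lower). The split of the calls depended on scaling. With TMM or the size factors of DESeq2, 4 rose and 6 fell (40.0% higher). With upper-quartile scaling or library totals, 6 rose and 5 fell (54.5% higher).

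**Figure D1:**
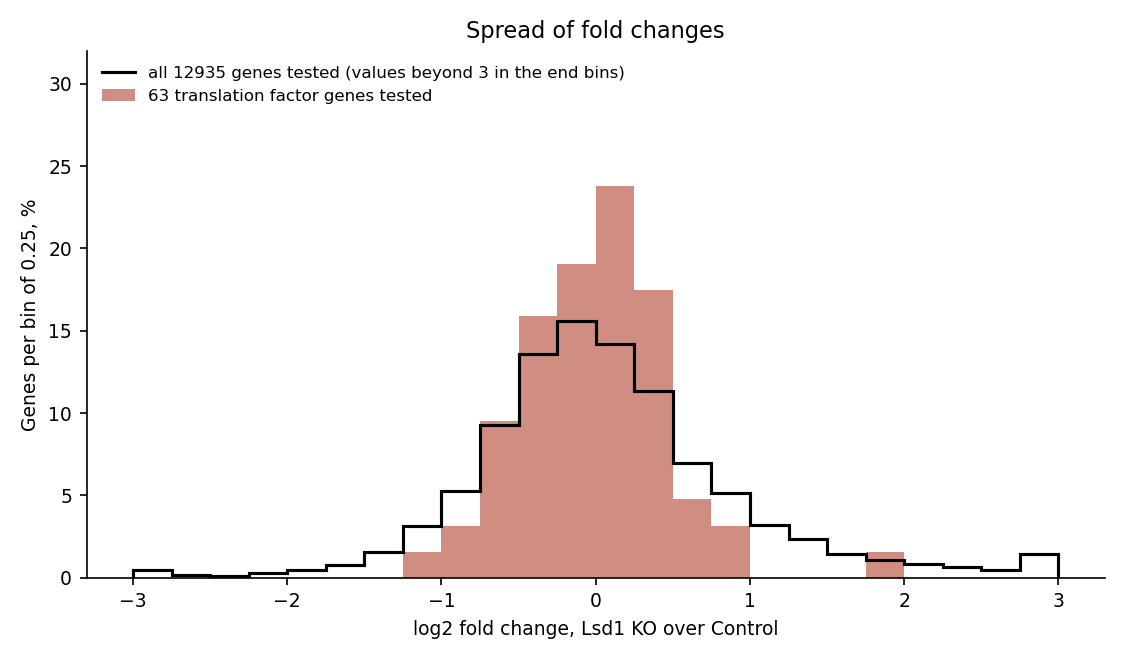
Distribution of log2 fold changes, Lsd1 KO over Control, in bins of 0.25, for the 63 translation factor genes tested (filled bars) and all 12935 genes tested (line), each as percent of its genes. The translation factors cluster near 0, with a median size of 0.27 against 0.44 for all genes, and Eif2ak2 lies alone at the right.

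**Figure D2:**
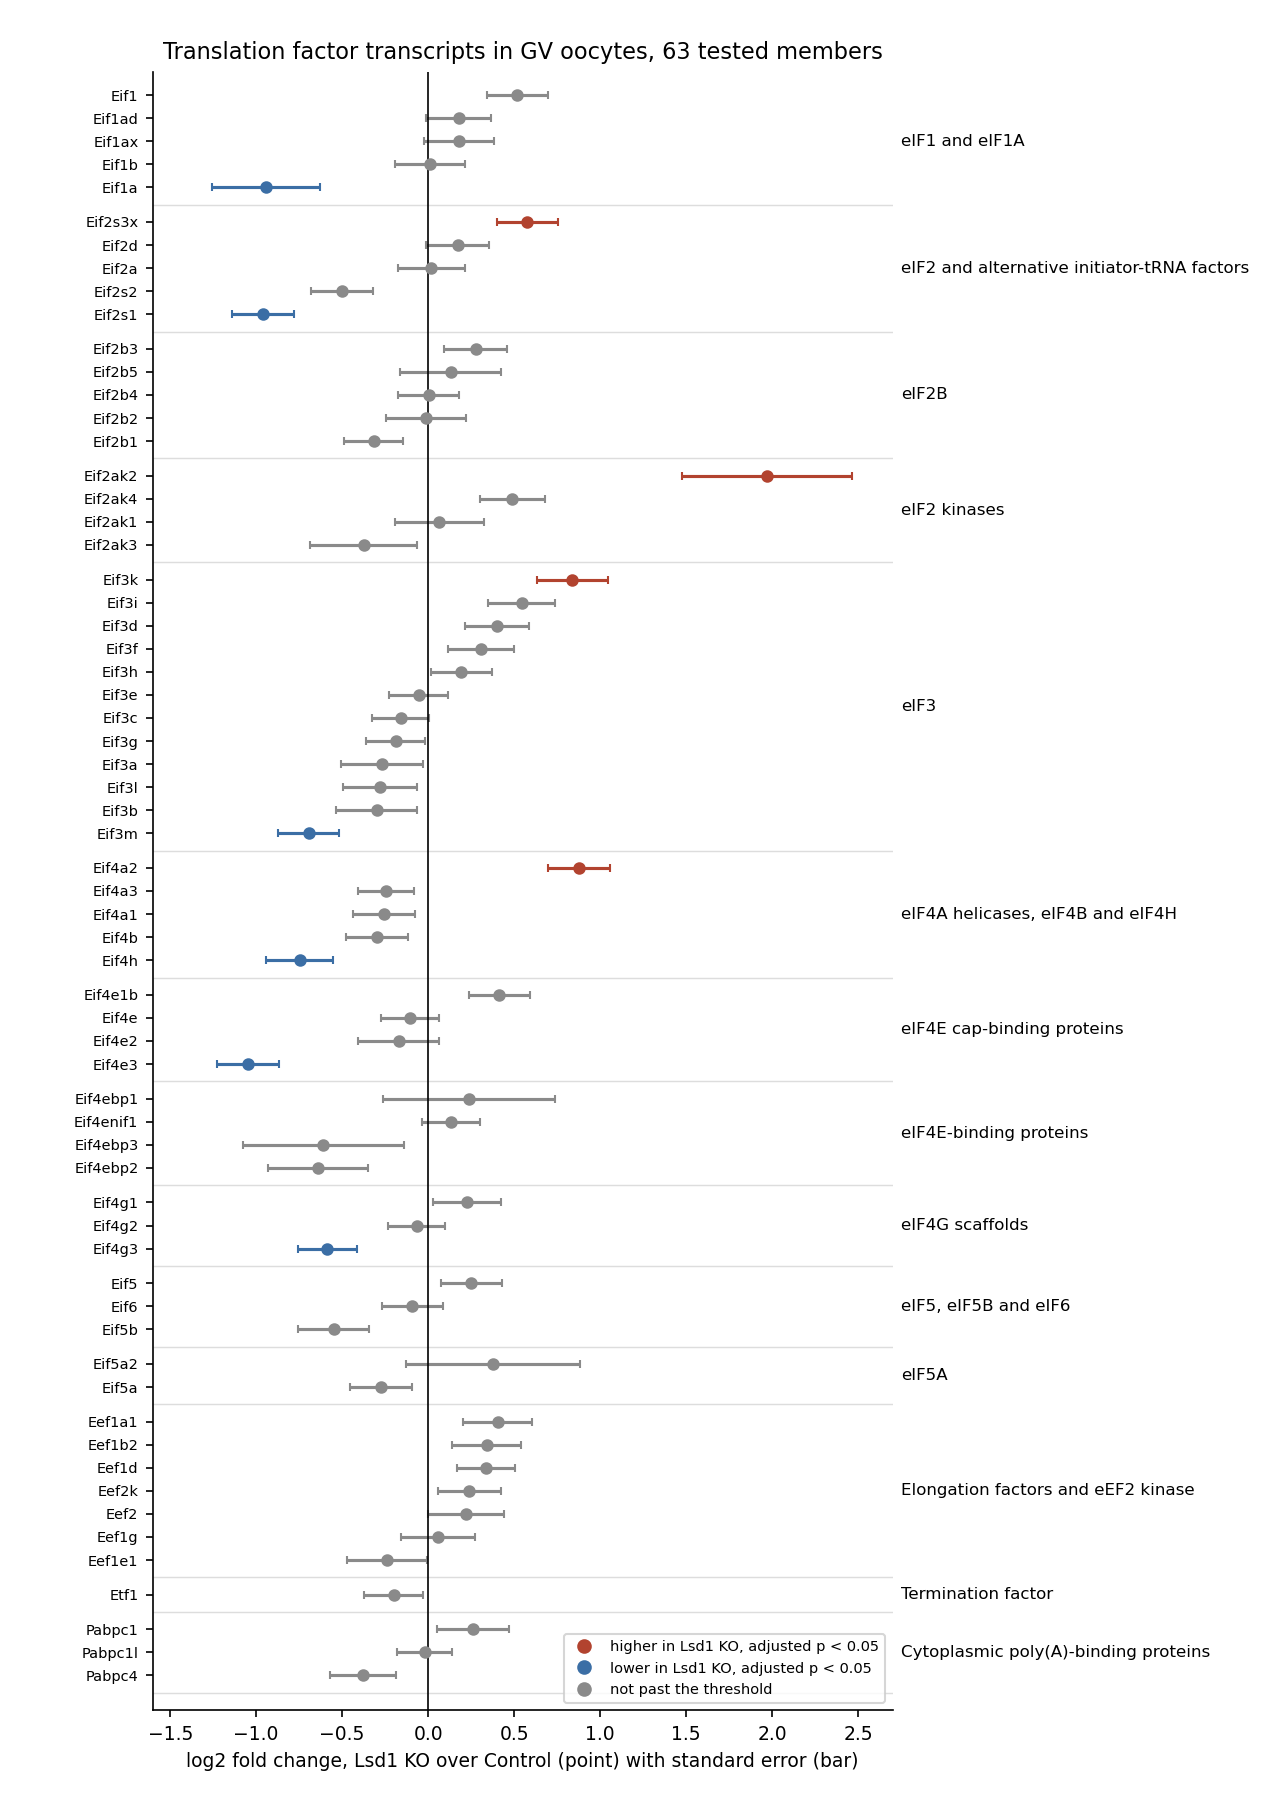
Log2 fold change (Lsd1 KO over Control, points) with standard error (bars) of each tested translation factor gene, grouped by role. Red genes were higher and blue genes lower in Lsd1 KO at adjusted p under 0.05; calls are spread over 7 of the 14 roles and none lies among the elongation factors.

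Levels of different genes were compared per kilobase of all annotated exons of the gene. The transcript forms present in these oocytes were not determined, so ranks and family shares on this scale are approximate. The highest translation factor gene was Eif4e1b, the oocyte form of the cap-binding protein. It reached 493 CPM per kb in Lsd1 KO oocytes and 369.9 CPM per kb in Control oocytes. Next came Eef1a1, which brings aminoacyl-tRNA to the ribosome, at 424 CPM per kb in Lsd1 KO oocytes and 321 CPM per kb in Control oocytes, and Eif1b, a paralogue of the start-codon selection factor Eif1, at 297 CPM per kb in Lsd1 KO oocytes and 295 CPM per kb in Control oocytes. Eif3e, Eif5, Eif1, Eif3k, Eif4enif1, Eif3g and Eif4a1 completed the 10 highest. Of these 10 only Eif3k was called. At the other end, 7 genes were too low to test: Eef1a2, Eif2s3y, Eif3j and Pabpc5 were listed at 0 in all 6 libraries. Pabpc2 had 0 counts in each Lsd1 KO library, against 3, 2 and 0 in the Control libraries. Pabpc4l had 5, 1 and 11 counts in Lsd1 KO, against 1, 1 and 7 in Control, and Pabpc6 had 9, 3 and 30 in Lsd1 KO, against 6, 23 and 4 in Control. A count of 0 allows a level of up to 0.226 to 0.277 CPM, from 3 counts per library on the same TMM scale. Eef1a2 is the muscle and brain paralogue of Eef1a1, and Eif2s3y is the Y-linked paralogue of Eif2s3x. Eif3j has a near-identical copy elsewhere in the genome, so its count is uncertain. Such copies were found for 18 of the 70 genes, among them Eif4e1b, Eif4e, Eif4a1, Eif1, Eif3e and Eif2s2, whose counts are uncertain too.

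Among the cap-binding proteins 1 of 4 was called. Eif4e3, a cap-binding paralogue of eIF4E, had 164, 226 and 181 CPM in Lsd1 KO replicates 1 to 3, against 405, 361 and 414 CPM in Control replicates 1 to 3. Every Lsd1 KO library was below every Control library. The level fell 2.07-fold (log2 fold change -1.05 ± 0.18, adjusted p = 0.00209), and the call held without any single library, with adjusted p at most 0.0191. Eif4e3 spans chr6:99207478-99616791 (mm9, minus strand) and shares 1.32% of its exon bases with Foxp1 on the same strand. Eif4e1b lies the other way: it had 1055, 1100.3 and 1179 CPM in Lsd1 KO, against 721, 802 and 979 CPM in Control. Its groups did not overlap either, but the log2 fold change of 0.41 ± 0.18 was not called (adjusted p = 0.116). It was called in 2 of 15 refits, without Control replicate 3 (adjusted p = 0.0476) and with a filter of 10 CPM in 3 libraries (adjusted p = 0.0484). With length and GC correction its log2 fold change was 0.19 (adjusted p = 0.471). Eif4e itself averaged 249.99 ± 21.4 CPM in Lsd1 KO oocytes and 269 ± 26.4 CPM in Control oocytes (SD, n = 3 each; log2 fold change -0.10 ± 0.17, adjusted p = 0.694). Eif4e2, a weak cap binder tied to repression, averaged 17.9 ± 1.92 CPM in Lsd1 KO oocytes and 20.1 ± 3.99 CPM in Control oocytes (log2 fold change -0.17 ± 0.24, adjusted p = 0.643).

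Of the summed level of the cap-binding family per kilobase, Eif4e3 took a smaller and Eif4e1b a larger share in every Lsd1 KO library than in any Control library. Eif4e3 made up 4.88%, 6.37% and 4.998% in the Lsd1 KO libraries, against 14.3%, 12.5% and 12.1% in the Control libraries. Eif4e1b made up 79.4%, 78.5% and 82.3% in the Lsd1 KO libraries, against 64.5%, 70.2% and 72.1% in the Control libraries, and Eif4e 14.1% ± 1.61 in Lsd1 KO oocytes and 17.6% ± 2.72 in Control oocytes (SD, n = 3 each). In each case the groups did not overlap, and the exact two-sided permutation p was 0.1, the smallest that 3 against 3 allows, or 0.136 adjusted over the 19 shares computed. Shares within a family sum to the whole, so a smaller share of any gene raises the others. The shares of a family, here and below, are therefore not separate results.

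None of the 4 genes for eIF4E-binding proteins, which keep eIF4E from its scaffold, was called by edgeR, DESeq2 or limma-voom, and 1 had an unadjusted p under 0.05 in edgeR. Eif4enif1, the eIF4E transporter found in oocyte ribonucleoprotein granules, averaged 931 ± 58.2 CPM in Lsd1 KO oocytes and 849 ± 99.5 CPM in Control oocytes (log2 fold change 0.13 ± 0.17, adjusted p = 0.617). The mTOR-controlled inhibitors were far lower per kilobase too. Eif4ebp2 had 6.57, 6.67 and 6.01 CPM in Lsd1 KO, against 8.97, 10.9 and 10.1 CPM in Control, with no overlap but a log2 fold change of -0.64 ± 0.29 that was not called (adjusted p = 0.136). Eif4ebp1 averaged 2.81 ± 1.11 CPM in Lsd1 KO oocytes and 2.38 ± 0.6601 CPM in Control oocytes (adjusted p = 0.771). Eif4ebp3 averaged 3.37 ± 1.65 CPM in Lsd1 KO oocytes and 5.12 ± 2.04 CPM in Control oocytes (adjusted p = 0.382), and 67.3% of its exon bases lie in Ankhd1 on the same strand, so its reads may be uncertain.

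Of the 3 eIF4G scaffolds, Eif4g3 was called. It had 150.2, 165 and 137 CPM in Lsd1 KO replicates 1 to 3, against 236, 197 and 246 CPM in Control replicates 1 to 3, and every Lsd1 KO library was below every Control library. The level fell 1.503-fold (log2 fold change -0.59 ± 0.17, adjusted p = 0.0284). The call was lost without Lsd1 KO replicate 1 (adjusted p = 0.119), without Lsd1 KO replicate 3 (0.134), without Control replicate 1 (0.0671) and without Control replicate 3 (0.0532). Eif4g1, the canonical scaffold, averaged 94.5 ± 5.49 CPM in Lsd1 KO oocytes and 80.9 ± 19.6 CPM in Control oocytes (log2 fold change 0.22 ± 0.20, adjusted p = 0.448). Eif4g2, which lacks the eIF4E-binding site, averaged 676 ± 51.3 CPM in Lsd1 KO oocytes and 709 ± 68.98 CPM in Control oocytes (log2 fold change -0.07 ± 0.17, adjusted p = 0.807). Of the summed scaffold level per kilobase, Eif4g3 made up 14.4% ± 0.571 in Lsd1 KO oocytes and 20.01% ± 2.59 in Control oocytes, and Eif4g1 13.8% ± 0.806 in Lsd1 KO oocytes and 10.8% ± 1.56 in Control oocytes (exact two-sided permutation p = 0.1 for each, 0.136 adjusted).

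The helicase group held changes in both directions. Eif4a2, a paralogue of the abundant helicase Eif4a1, had 248, 222 and 208 CPM in Lsd1 KO replicates 1 to 3, against 132, 101 and 136 CPM in Control replicates 1 to 3. All Lsd1 KO libraries were above all Control libraries. The level rose 1.84-fold (log2 fold change 0.88 ± 0.18, adjusted p = 0.00527), and the call held without any single library, with adjusted p at most 0.0267. Eif4a2 spans chr16:23107517-23114209 (mm9, plus strand). Small nucleolar RNAs lie within its exon bases on the same strand, 3.63% of its exon bases face Rfc4, and it has 1 near-identical genomic copy, so its count may hold reads of other features. Eif4h, which stimulates the helicase, had 76.96, 100.3 and 111 CPM in Lsd1 KO replicates 1 to 3, against 135, 184 and 165 CPM in Control replicates 1 to 3, again without overlap. It fell 1.68-fold (log2 fold change -0.75 ± 0.19, adjusted p = 0.0171), but was not called without Lsd1 KO replicate 1 (adjusted p = 0.104) or Control replicate 2 (0.0777). Eif4a1 averaged 488 ± 8.35 CPM in Lsd1 KO oocytes and 583 ± 109 CPM in Control oocytes (log2 fold change -0.26 ± 0.18, adjusted p = 0.334). It has 2 near-identical genomic copies, so its count is uncertain as well. The exon-junction helicase Eif4a3 averaged 132 ± 10.1 CPM in Lsd1 KO oocytes and 156 ± 10.02 CPM in Control oocytes (adjusted p = 0.309), and the cofactor Eif4b 193 ± 15.2 CPM in Lsd1 KO oocytes and 237 ± 42.4 CPM in Control oocytes (adjusted p = 0.266).

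Within the pair of Eif4a2 and Eif4a1, per kilobase, Eif4a2 made up 28.9%, 27.03% and 26.1% in the Lsd1 KO libraries, against 17.1%, 13.7% and 13.5% in the Control libraries, so that its groups did not overlap. The means were 27.3% ± 1.43 in Lsd1 KO oocytes and 14.8% ± 1.997 in Control oocytes (SD, n = 3 each; exact two-sided permutation p = 0.1, 0.136 adjusted).

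**Figure D3:**
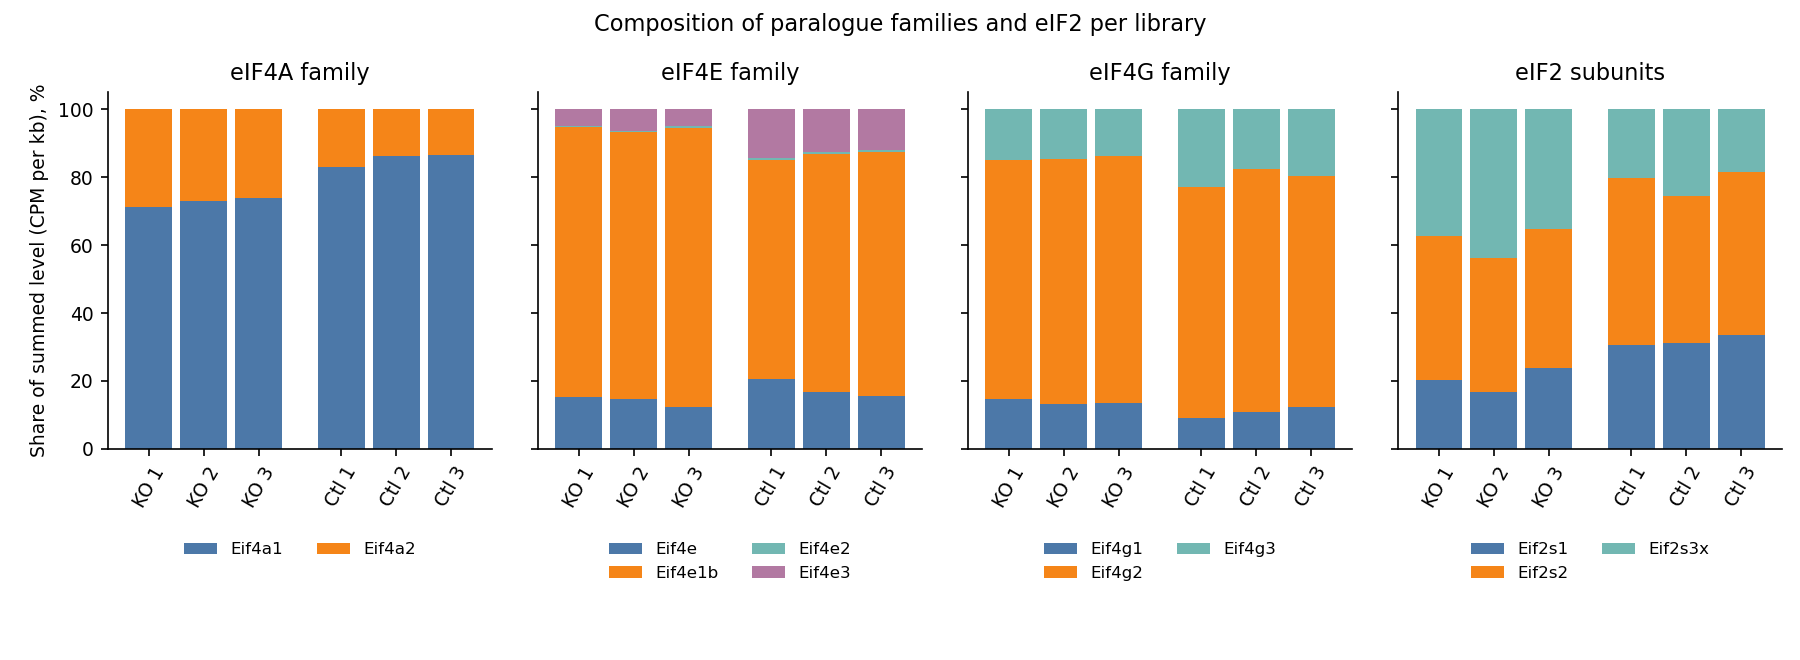
Share (%) of each gene in the summed level per kilobase of its family in each library, Lsd1 KO replicates left and Control replicates right. Eif4a2 takes 27.3% of the eIF4A pair in Lsd1 KO and 14.8% in Control on average, and Eif4e3 takes 5.42% of the eIF4E family in Lsd1 KO and 13.0% in Control.

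The subunits of eIF2 did not move together. Eif2s1 encodes the alpha subunit, whose phosphorylation is the main brake on initiation, and had 90.8, 82.8 and 107 CPM in Lsd1 KO replicates 1 to 3, against 187, 156 and 203 CPM in Control replicates 1 to 3. Every Lsd1 KO library was below every Control library. The level fell 1.94-fold (log2 fold change -0.96 ± 0.18, adjusted p = 0.00348), and adjusted p was at most 0.0231 with any single library left out. Eif2s1 spans chr12:79962806-79987997 (mm9, plus strand). Eif2s2, the beta subunit, had 377, 389.5 and 368 CPM in Lsd1 KO, against 600.5, 428 and 575 CPM in Control, with no overlap and a log2 fold change of -0.50 ± 0.18 that was not called (adjusted p = 0.0661). It was called in 2 of 15 refits, by DESeq2 (adjusted p = 0.0335) and without Control replicate 2 (0.0476). Eif2s3x, the X-linked gene of the gamma subunit, had 187, 243 and 178 CPM in Lsd1 KO, against 139, 143 and 126 CPM in Control, and here all Lsd1 KO libraries were above all Control libraries. It rose 1.49-fold (log2 fold change 0.58 ± 0.18, adjusted p = 0.0365). That call was not met without Lsd1 KO replicate 1 (adjusted p = 0.0699), Lsd1 KO replicate 2 (0.148), Control replicate 1 (0.0907), Control replicate 2 (0.0756) or Control replicate 3 (0.0825). A near-identical genomic copy makes the Eif2s3x count uncertain.

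Of the summed eIF2 subunit level per kilobase, the gamma subunit transcript made up 38.7% ± 4.45 in Lsd1 KO oocytes and 21.4% ± 3.65 in Control oocytes, and the alpha subunit transcript 20.2% ± 3.53 in Lsd1 KO oocytes and 31.8% ± 1.58 in Control oocytes (SD, n = 3 each). Neither overlapped between the genotypes (exact two-sided permutation p = 0.1 for each, 0.136 adjusted). The alternative initiator-tRNA factors Eif2a and Eif2d had log2 fold changes of 0.02 ± 0.19 (adjusted p = 0.957) and 0.17 ± 0.18 (adjusted p = 0.539).

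None of the 5 subunits of eIF2B, the exchange factor that recharges eIF2, was called by edgeR, DESeq2 or limma-voom, and 0 had an unadjusted p under 0.05 in edgeR. Their log2 fold changes ran from -0.32 for Eif2b1 to 0.28 for Eif2b3, with a lowest adjusted p of 0.211 for Eif2b1, which was called after correction for length and GC (adjusted p = 0.046).

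Of the 4 kinases that phosphorylate eIF2 alpha, Eif2ak2 was called. Eif2ak2 encodes PKR, an interferon-induced kinase that senses double-stranded RNA, and had 7.94, 4.87 and 4.76 CPM in Lsd1 KO replicates 1 to 3, against 0.832, 2.41 and 1.17 CPM in Control replicates 1 to 3. Its levels, the lowest of the called genes in CPM and per kilobase, came from 99, 54 and 53 counts in Lsd1 KO, against 9, 32 and 13 counts in Control, and the groups did not overlap. The level was 3.92-fold higher (log2 fold change 1.97 ± 0.50, adjusted p = 0.0147), but the call was not met without Lsd1 KO replicate 1 (adjusted p = 0.0782) or Control replicate 1 (0.0603). The summed blood and immune markers, given above, were also higher in Lsd1 KO replicates 1 and 3 than in any Control library, and their part in this result was not tested. In Lsd1 KO replicate 2, where the sum was 8.93 CPM, Ptprc, Cd52 and Tyrobp had 0 counts and Lyz2 had 1, while Cd74 was at 1.62 CPM and Laptm5 at 7.22 CPM, against 3.88 to 5.87 CPM for Laptm5 in the Control libraries. Eif2ak2 spans chr17:79251904-79281913 (mm9, minus strand). Eif2ak4, the amino-acid sensor GCN2, had 108, 95.1 and 87.3 CPM in Lsd1 KO, against 55.2, 70.5 and 81.1 CPM in Control, with no overlap. Its log2 fold change of 0.49 ± 0.19 was not called (adjusted p = 0.0867). It passed in 2 of 15 refits, without Control replicate 3 (adjusted p = 0.0493) and with the 10 CPM filter (0.0396). The heme-regulated Eif2ak1 averaged 160.2 ± 26.96 CPM in Lsd1 KO oocytes and 153 ± 65.4 CPM in Control oocytes (adjusted p = 0.884), and Eif2ak3, the kinase of the endoplasmic reticulum, 13.3 ± 3.18 CPM in Lsd1 KO oocytes and 17.3 ± 6.58 CPM in Control oocytes (adjusted p = 0.42).

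Of the 12 eIF3 subunit genes tested, 1 rose and 1 fell. Eif3k had 176, 184 and 241 CPM in Lsd1 KO replicates 1 to 3, against 132, 118 and 85.5 CPM in Control replicates 1 to 3, with all Lsd1 KO libraries above all Control libraries. It rose 1.79-fold (log2 fold change 0.84 ± 0.21, adjusted p = 0.0132), a call not met without Lsd1 KO replicate 3 (adjusted p = 0.0592). Eif3m had 117, 118 and 125 CPM in Lsd1 KO, against 235, 169.8 and 177 CPM in Control, with the Lsd1 KO libraries within a narrow range below all Control libraries. It fell 1.62-fold (log2 fold change -0.70 ± 0.18, adjusted p = 0.0161), a call not met without Lsd1 KO replicate 1 (adjusted p = 0.0829), Lsd1 KO replicate 3 (0.0566) or Control replicate 1 (0.0544); it has 1 near-identical genomic copy, and 3.17% of its exon bases face Ccdc73. Eif3i, a WD-repeat subunit, had 213, 229 and 222 CPM in Lsd1 KO, against 129, 131 and 196 CPM in Control, with no overlap. Its log2 fold change of 0.54 ± 0.19 was not called (adjusted p = 0.0643). It was called in 6 of 15 refits: by DESeq2 (adjusted p = 0.0365), limma-voom (0.0499), with upper-quartile scaling (0.036), library totals (0.0337) or the 10 CPM filter (0.0241), and without Control replicate 3 (0.0107). Leaving out 1 library gave adjusted p up to 0.2196, and length and GC correction gave 0.124. The scaffold subunits Eif3a, Eif3b and Eif3c had log2 fold changes of -0.27 ± 0.24, -0.30 ± 0.23 and -0.16 ± 0.17. Eif3e and Eif3g, among the 10 highest per kilobase, had log2 fold changes of -0.05 ± 0.17 (adjusted p = 0.849) and -0.19 ± 0.17 (adjusted p = 0.467).

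Factors that select the start codon and join the subunits held 1 call among 8. Eif1a, a gene for eIF1A, which keeps the scanning ribosome open, had 10.5, 7.03 and 11.3 CPM in Lsd1 KO replicates 1 to 3, against 19.9, 23.7 and 11.8 CPM in Control replicates 1 to 3. The groups lay close, with Control replicate 3 just above the highest Lsd1 KO library. It fell 1.92-fold (log2 fold change -0.94 ± 0.31, adjusted p = 0.0494), the highest adjusted p of the 10 calls. It was not met without Lsd1 KO replicate 1 (adjusted p = 0.106), Lsd1 KO replicate 2 (0.121), Lsd1 KO replicate 3 (0.0798), Control replicate 1 (0.12) or Control replicate 2 (0.201), nor with limma-voom (0.0597), upper-quartile scaling (0.0693), library totals (0.0686), the 10 CPM filter (0.0674) or length and GC correction (0.0548). Its X-linked paralogue Eif1ax, which has the higher level per kilobase, averaged 347 ± 33.3 CPM in Lsd1 KO oocytes and 307 ± 81.9 CPM in Control oocytes (log2 fold change 0.18 ± 0.20, adjusted p = 0.571).

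Eif1, which proofreads the start codon, had 369, 337 and 434 CPM in Lsd1 KO, against 295, 226 and 273 CPM in Control. Its groups did not overlap, and the log2 fold change of 0.52 ± 0.18 was not called (adjusted p = 0.0579). Eif1 was called in 4 of 15 refits: with DESeq2 (adjusted p = 0.0258), upper-quartile scaling (0.0399), library totals (0.0412) and the 10 CPM filter (0.0306). Leaving out any single library gave no call (adjusted p 0.0663 to 0.188). With length and GC correction its log2 fold change was 0.29 (adjusted p = 0.233). Eif5b, the GTPase that joins the ribosomal subunits, had 253, 293 and 265 CPM in Lsd1 KO, against 369, 302 and 516 CPM in Control (log2 fold change -0.55 ± 0.21, adjusted p = 0.0777). Its groups did not overlap, and it was called in 2 of 15 refits, by DESeq2 (adjusted p = 0.0447) and without Control replicate 2 (0.0473). Of its exon bases, 15.9% face Rev1. Eif5, which activates GTP hydrolysis by eIF2, averaged 701 ± 77.6 CPM in Lsd1 KO oocytes and 589 ± 74.1 CPM in Control oocytes (adjusted p = 0.337). Eif6, which keeps the large subunit from joining early, averaged 114 ± 19.3 CPM in Lsd1 KO oocytes and 122 ± 8.65 CPM in Control oocytes (adjusted p = 0.749).

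**Figure D4:**
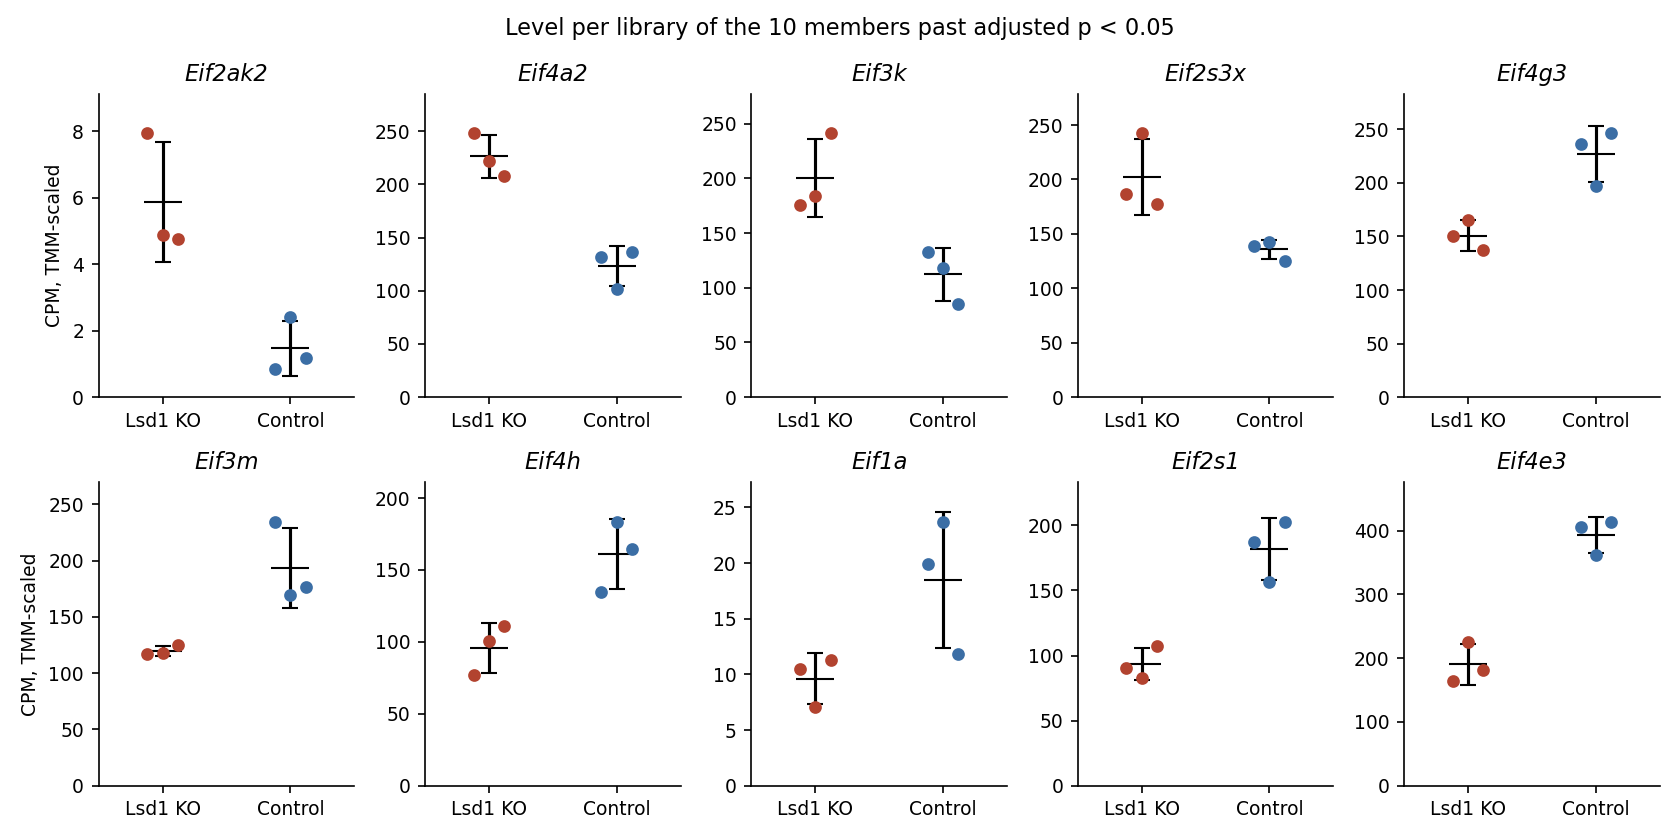
CPM (TMM-scaled) of the 10 called genes in each library (points), with mean and SD (bars), Lsd1 KO left and Control right. In each panel the Lsd1 KO and Control points do not overlap, by a narrow margin for Eif1a, where Lsd1 KO replicate 3 was 11.3 CPM and Control replicate 3 was 11.8 CPM.

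None of the 7 tested genes with an Eef symbol was called by edgeR, DESeq2 or limma-voom, and 0 had an unadjusted p under 0.05 in edgeR. The lowest adjusted p was 0.177, and 6 of the 7 log2 fold changes were above 0, with a median of 0.24. The exception was Eef1e1, at -0.24 ± 0.23 (adjusted p = 0.501). The values of Eef1e1, Eef1g and Eef2 changed sign in some refits. Eef1a1 had 1069, 922 and 1179 CPM in Lsd1 KO, against 958, 839.6 and 599.9 CPM in Control, with overlapping groups (log2 fold change 0.40 ± 0.20, adjusted p = 0.177); it has 5 near-identical genomic copies, which makes its count uncertain. Eef2, which moves the ribosome along the mRNA, averaged 277 ± 45.2 CPM in Lsd1 KO oocytes and 238 ± 66.6 CPM in Control oocytes (log2 fold change 0.22 ± 0.22, adjusted p = 0.508), and Eef2k, the kinase that inhibits it, 289 ± 13.3 CPM in Lsd1 KO oocytes and 245 ± 45.6 CPM in Control oocytes (adjusted p = 0.377). The exchange-factor subunits Eef1b2, Eef1d and Eef1g had log2 fold changes of 0.34 ± 0.20, 0.34 ± 0.17 and 0.06 ± 0.22. Eif5a, the hypusine-bearing factor that helps ribosomes through difficult sequences, averaged 227 ± 22.8 CPM in Lsd1 KO oocytes and 274 ± 46.4 CPM in Control oocytes (adjusted p = 0.307), and its paralogue Eif5a2 3.73 ± 0.503 CPM in Lsd1 KO oocytes and 2.87 ± 1.58 CPM in Control oocytes (adjusted p = 0.635).

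Termination and the poly(A) tail held no call by edgeR, DESeq2 or limma-voom, and 0 of the 4 genes tested had an unadjusted p under 0.05 in edgeR. Etf1, the release factor that reads stop codons, averaged 98.04 ± 1.56 CPM in Lsd1 KO oocytes and 113 ± 16.7 CPM in Control oocytes (log2 fold change -0.20 ± 0.17, adjusted p = 0.438). Pabpc1l, the poly(A)-binding protein of oocytes and early embryos, had 104, 112 and 109.6 CPM in Lsd1 KO, against 113, 108 and 109 CPM in Control. The groups overlapped within a range of a few CPM, and the log2 fold change was -0.02 ± 0.16 (adjusted p = 0.942). Pabpc1, the main form of somatic cells, averaged 62.1 ± 9.63 CPM in Lsd1 KO oocytes and 51.8 ± 11.5 CPM in Control oocytes (log2 fold change 0.26 ± 0.21, adjusted p = 0.404). Pabpc4 averaged 109 ± 3.38 CPM in Lsd1 KO oocytes and 141 ± 33.1 CPM in Control oocytes (log2 fold change -0.38 ± 0.19, adjusted p = 0.185), and was called without Control replicate 3 (adjusted p = 0.04).

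The 10 called genes lie on 10 different chromosomes. Their median exonic length was 3608.5 bases, against 2968 for the other tested translation factors. Their median exonic GC content was 44.0%, against 50.2%. Of the 10, Eif4a2, Eif2s1 and Eif4e3 were called in all 15 refits with other scalings, filters, tests or samples.

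**Figure D5:**
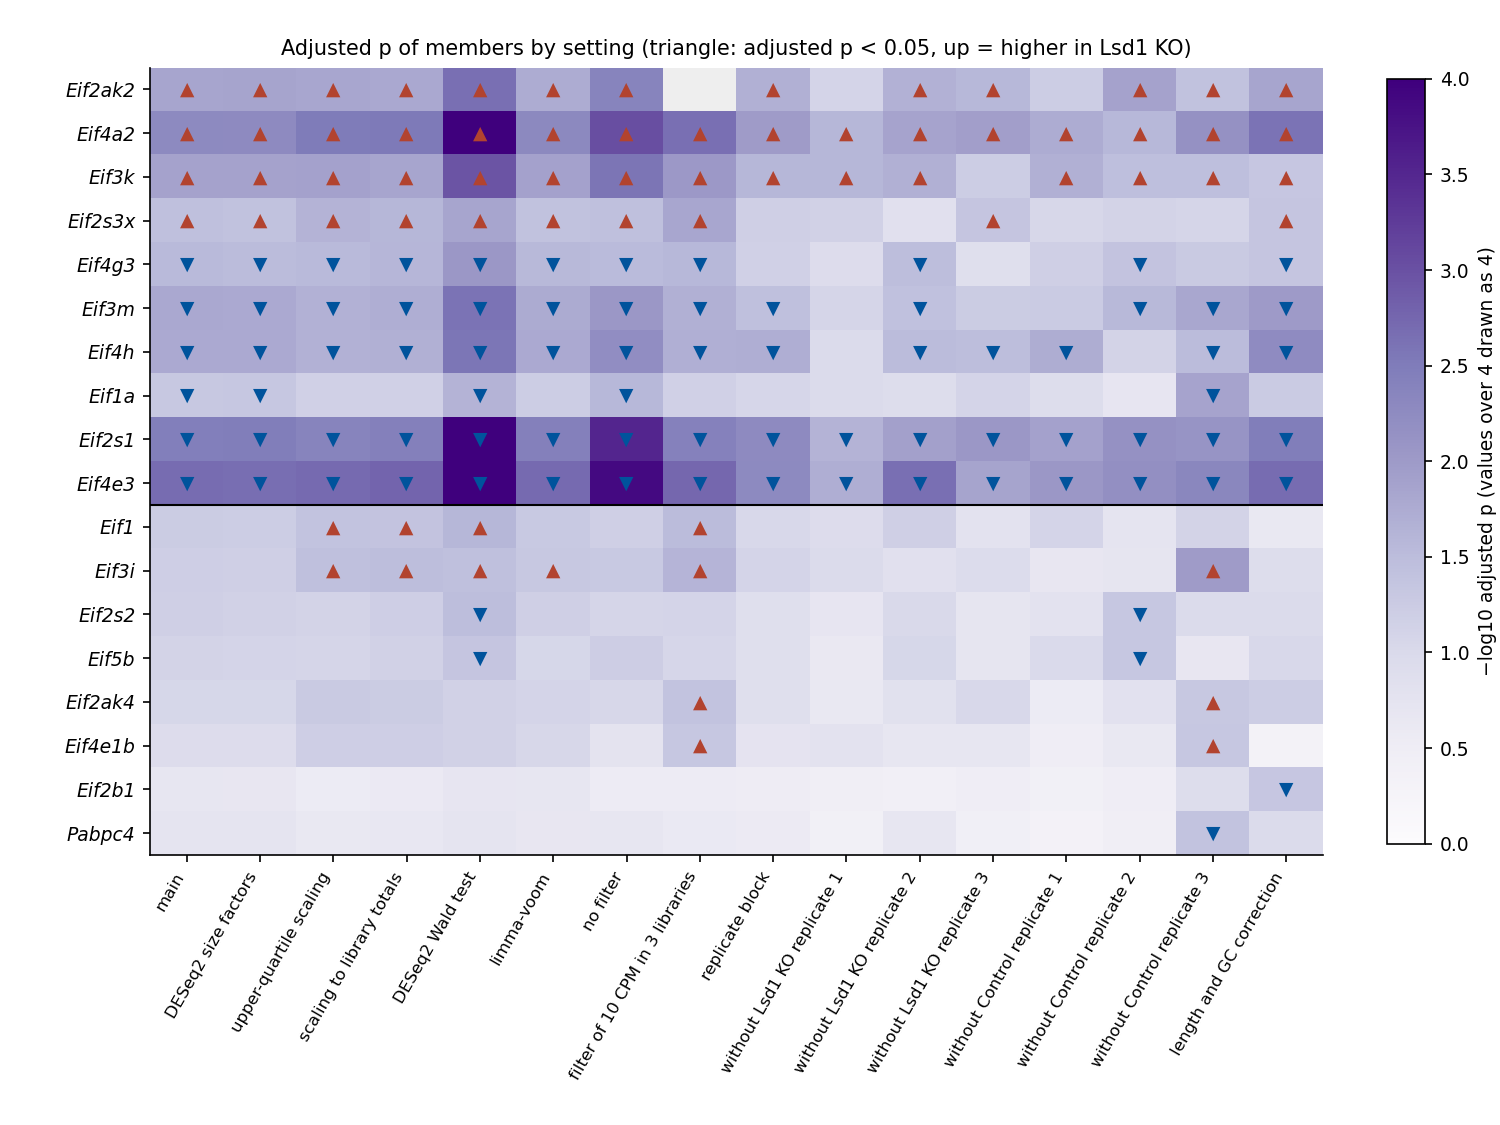
Negative log10 adjusted p of 18 translation factor genes (rows) under the reported test and 15 refits (columns), with darker cells for smaller p and triangles where adjusted p was under 0.05, pointing up for higher and down for lower in Lsd1 KO. The rows of Eif4a2, Eif2s1 and Eif4e3 carry a triangle in every column; the grey cell marks Eif2ak2 below the 10 CPM filter, and the 8 genes under the line were called only under some refits.

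A further list held 67 other genes of translation and its control, such as the mTOR pathway, release and rescue factors, La-related proteins and the mitochondrial translation factors. Of the 64 tested, 2 rose, 9 fell and 53 were not called, so that 17.2% were called, against 21.3% of all genes. Atf4, a transcription factor whose mRNA is translated when eIF2 alpha is phosphorylated, rose, with 252 ± 46.2 CPM in Lsd1 KO oocytes and 155 ± 7.45 CPM in Control oocytes (log2 fold change 0.70 ± 0.18, adjusted p = 0.0157). It was not called without Lsd1 KO replicate 2 (adjusted p = 0.07), without Control replicate 1 (0.0651) or with length and GC correction (0.118). Eefsec, the elongation factor for selenocysteine, rose, with 34.6 ± 4.56 CPM in Lsd1 KO oocytes and 22.3 ± 1.56 CPM in Control oocytes (log2 fold change 0.63 ± 0.20, adjusted p = 0.0386). It was not called with no filter (adjusted p = 0.0556), without Lsd1 KO replicate 1 (0.0974), without Lsd1 KO replicate 3 (0.134), without Control replicate 1 (0.082), without Control replicate 2 (0.0885), without Control replicate 3 (0.0785) or with length and GC correction (0.08).

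The 9 genes that fell include activators and inhibitors of translation. Larp4, a poly(A)-binding protein that stabilises mRNA, had 184, 205 and 147 CPM in Lsd1 KO, against 321, 331 and 456 CPM in Control. With no overlap, its log2 fold change was -1.05 ± 0.20 (adjusted p = 0.0037), and this held without any single library. Nck1, an adaptor protein, averaged 30.9 ± 1.82 CPM in Lsd1 KO oocytes and 62.2 ± 14.1 CPM in Control oocytes (log2 fold change -1.01 ± 0.20, adjusted p = 0.00517), which also held without any single library. Paip2, an inhibitor of poly(A)-binding protein, averaged 265 ± 17.6 CPM in Lsd1 KO oocytes and 445 ± 48.6 CPM in Control oocytes (log2 fold change -0.75 ± 0.17, adjusted p = 0.00879), but was not called without Lsd1 KO replicate 1 (adjusted p = 0.0575). Deptor, an inhibitor of mTOR, averaged 73.3 ± 6.76 CPM in Lsd1 KO oocytes and 125 ± 12.6 CPM in Control oocytes (log2 fold change -0.77 ± 0.17, adjusted p = 0.00795), but was not called without Lsd1 KO replicate 1 (adjusted p = 0.0568).

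Around the same kinase, the S6 kinase gene Rps6kb1 averaged 48.3 ± 0.114 CPM in Lsd1 KO oocytes and 78.4 ± 9.71 CPM in Control oocytes (log2 fold change -0.70 ± 0.17, adjusted p = 0.0142). It was not called without Lsd1 KO replicate 1 (adjusted p = 0.0641) or without Lsd1 KO replicate 3 (0.0597). Rheb, the GTPase that activates mTOR, averaged 56.5 ± 6.39 CPM in Lsd1 KO oocytes and 92.6 ± 31.9 CPM in Control oocytes (log2 fold change -0.71 ± 0.23, adjusted p = 0.0457). This call was lost with upper-quartile scaling (adjusted p = 0.065), with library totals (0.0613), with limma-voom (0.0584), with the 10 CPM filter (0.0672), without Lsd1 KO replicate 1 (0.108), without Lsd1 KO replicate 2 (0.106), without Lsd1 KO replicate 3 (0.11) or without Control replicate 1 (0.169). Mknk1, a kinase of eIF4E, averaged 78.02 ± 7.71 CPM in Lsd1 KO oocytes and 125 ± 25.9 CPM in Control oocytes (log2 fold change -0.68 ± 0.19, adjusted p = 0.0238), and was not called without Lsd1 KO replicate 1 (adjusted p = 0.113), without Lsd1 KO replicate 3 (0.0952) or without Control replicate 3 (0.0618).

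Gspt2, a GTPase partner of the release factor, averaged 90.97 ± 15.6 CPM in Lsd1 KO oocytes and 141 ± 6.82 CPM in Control oocytes (log2 fold change -0.63 ± 0.18, adjusted p = 0.0247). Its call was lost without Lsd1 KO replicate 1 (adjusted p = 0.108), without Lsd1 KO replicate 3 (0.134) or without Control replicate 2 (0.0628). Ppp1r15b, a phosphatase subunit that acts on eIF2 alpha, averaged 30.6 ± 3.69 CPM in Lsd1 KO oocytes and 46.8 ± 8.65 CPM in Control oocytes (log2 fold change -0.61 ± 0.20, adjusted p = 0.0471). That call was lost with upper-quartile scaling (adjusted p = 0.057), with library totals (0.0553), with limma-voom (0.0533), with no filter (0.051), with the 10 CPM filter (0.0569), without Lsd1 KO replicate 1 (0.173), without Lsd1 KO replicate 3 (0.175), without Control replicate 2 (0.202) or without Control replicate 3 (0.0626). Its paralogue Ppp1r15a was not called (log2 fold change 0.29 ± 0.21, adjusted p = 0.343). Over the list, 2 genes were lower without Lsd1 KO replicate 1 and 4 without Lsd1 KO replicate 3, against 9 with all libraries. Over all genes the lower calls fell as well, to 638 and 727 in these refits, against 1329 with all libraries.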

How the data were processed

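The deposited files give raw read counts per gene symbol, 1 column per sample, made by the authors. TopHat2 2.0.7, HTSeq 0.5.3p9, CASAVA 1.8.2 and the mm9 build appear, with no order or role, in the submitters' processing notes. The sources used here do not give the annotation or the strand setting of the counting, so reads of overlapping genes on opposite strands cannot be told apart. Per the labels' protocols, cDNA was amplified before library preparation, so counts are not independent molecules and floors cover counting error only.

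Samples were grouped by labelled genotype. Genes were filtered by filterByExpr (minimum count 10), scaled by TMM and tested two-sided with edgeR 4.0.16 (quasi-likelihood F test, R 4.3.3), with Benjamini-Hochberg adjustment over all genes. An adjusted p with no tool beside it is edgeR's. Standard errors come from the fold change and the F statistic. Alternatives used DESeq2 1.42.0 and limma 3.58.1. Lengths, GC content and overlaps come from GENCODE M1 on NCBIM37, the assembly of mm9. Genomic copies were found with minimap2 2.31 (at least 95% identity over 50% of a transcript). The scripts were tested on simulated counts. Genes named with values are every one called, the 10 highest per kilobase, a list of paralogues, and every called gene of the translation control list; others were chosen after their values were seen. The members and lists were chosen with earlier results of these data known.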

Additional observations from a re-analysis of the deposited data

How the results depend on the processing

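Beside the reported test, 17 alternatives were run; the correction for length and GC was chosen after seeing the data. Against 4 translation factors higher and 6 lower, the 10 CPM filter gave 7 higher, an adjusted p under 0.01 gave 1 higher and 2 lower, and a log2 fold change of at least 1 gave 1 and 1. Leaving out 1 library gave 2 to 6 higher and 2 to 6 lower, with 2 higher without Lsd1 KO replicate 1 or Control replicate 1, and 2 lower without Lsd1 KO replicate 1. Over all genes (1421 higher, 1329 lower) an adjusted p under 0.01 gave 676 and 497, a log2 fold change of at least 1 gave 945 and 625, and leaving out 1 library gave 932 to 1466 higher and 638 to 1346 lower. Of the translation control genes (2 higher, 9 lower), 1 was higher with the replicate block and 0 with length and GC correction; 0 higher and 4 lower passed 0.01, 0 and 2 passed the fold minimum, and leaving out 1 library gave 0 to 2 higher and 2 to 9 lower.

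The labels name no shared litter or batch behind the replicate numbers, so the samples were not treated as paired. Same-numbered samples correlated at -0.03 to 0.11 in their deviations. With 3 samples per genotype this cannot exclude a pairing. With the number as a block, 3 translation factors were higher and 4 lower, all 7 among the 10 calls; the others had adjusted p = 0.0848 for Eif1a, 0.0663 for Eif2s3x and 0.0681 for Eif4g3. Of the translation control calls, Eefsec (0.0758) and Ppp1r15b (0.0653) were lost.

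Of 1119 gene values under an alternative, 987 kept their direction and side of the threshold, 69 lost and 20 gained a call, and 43 turned sign, none of them a called gene; the cause was not tested. With length and GC correction the log2 fold change was -0.14 for Eef1g, -0.0015 for Eif1ad, -0.25 for Eif1b, -0.14 for Eif2b4, -0.0078 for Eif2b5, -0.074 for Eif3h, -0.059 for Eif4ebp1 and 0.045 for Eif4g2. Eif2b2 and Pabpc1l had 0.024 and 0.022 with upper-quartile scaling, 0.0095 and 0.0092 with library totals, and 0.046 and 0.044 with the 10 CPM filter, which gave 0.010 for Eif3e. With limma-voom Eif2b4 had -0.0013. Leaving out 1 library gave -0.41 to 0.011 for Eef1e1, -0.10 to 0.19 for Eef1g, -0.00063 to 0.42 for Eef2, -0.16 to 0.20 for Eif1b, -0.10 to 0.17 for Eif2a, -0.13 to 0.46 for Eif2ak1, -0.095 to 0.17 for Eif2b2, -0.11 to 0.095 for Eif2b4, -0.44 to 0.076 for Eif3a, -0.14 to 0.0063 for Eif3e, -0.30 to 0.010 for Eif4e2, -0.090 to 0.43 for Eif4ebp1, -0.025 to 0.68 for Eif5a2, -0.26 to 0.032 for Eif6 and -0.066 to 0.039 for Pabpc1l. Depth limits Eif2ak2, which rests on 9 to 99 counts per library.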
